A study of Homo sapiens with 20 samples.

Results

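The 10 genes described here belong to the Hippo pathway or are known as its transcriptional targets: CCN1, CCN2, AMOTL2, AJUBA, LATS2, YAP1, WWTR1, TEAD1, PTPN14 and ASAP1. They were 10 of the 19970 protein-coding genes annotated on chromosomes 1 to 22 and X. The genes were chosen by earlier results of these same data: CCN2, ASAP1 and PTPN14 had stood out for RNA polymerase II sites found in every library of one genotype and in no library of the other, and pathway genes were set beside them. Their positions, ranks and genotype splits are therefore given as a description, with no test. Chromatin immunoprecipitation with sequencing (ChIP-seq) was used to map the transcription factor c-Myc, written MYC below, and RNA polymerase II, written POL2, in PC-3, a cell line derived from a prostate cancer and of epithelial type. Wild-type (WT) PC-3 cells were compared with PC-3 cells called PSD10 in the labels, in which SLK, a gene for a serine/threonine kinase, had been knocked out (SLK-KO). No treatment is named for either genotype, and cells of both were grown to the same confluence. There were 3 POL2 and 3 MYC libraries per genotype with a list of peak summits. The remaining 8 of the 20 samples, 6 with IgG and 2 of Input, entered no comparison here. Every SLK-KO library is named PSD10, so loss of SLK and any other feature of that line cannot be told apart, and nothing states whether the replicates came from separate cultures.

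In the Hippo pathway, a kinase cascade that ends in LATS1 and LATS2 phosphorylates the coactivators YAP (gene YAP1) and TAZ (gene WWTR1) and keeps them out of the nucleus. When the cascade is less active, YAP and TAZ enter the nucleus and bind DNA through TEAD factors, which recognise a core of GGAATG. CCN1 and CCN2, which encode secreted matricellular proteins, are the targets most often used to read this activity, and AMOTL2, LATS2, AJUBA and PTPN14 encode proteins that act back on the pathway.

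Because the TEAD core is the sequence through which the pathway reaches its targets, the 250 bases before the start site were read for the 7 genes with an entry in the RefSeq promoter table (GRCh38.p14). The table has no entry for CCN1, TEAD1 and ASAP1. Of these, 4 held GGAATG, or its reverse complement CATTCC, before the canonical start, and their sequences are shown because they are the ones with the core. They are written 5′ to 3′ on the strand of the gene, with the last base next to the start site. Capitals mark the core on either strand and, in YAP1, also CACGTG, the E-box that MYC binds. CCN2 lies at chr6:131951373-131951622 (minus strand), AMOTL2 at chr3:134374448-134374697 (minus strand), YAP1 at chr11:102110197-102110446 (plus strand) and PTPN14 at chr1:214551603-214551852 (minus strand).
CCN2: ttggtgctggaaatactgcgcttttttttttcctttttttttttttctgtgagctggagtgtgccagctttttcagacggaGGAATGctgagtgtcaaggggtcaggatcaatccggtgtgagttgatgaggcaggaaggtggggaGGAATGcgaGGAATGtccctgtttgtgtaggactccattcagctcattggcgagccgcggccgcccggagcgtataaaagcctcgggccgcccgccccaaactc
AMOTL2: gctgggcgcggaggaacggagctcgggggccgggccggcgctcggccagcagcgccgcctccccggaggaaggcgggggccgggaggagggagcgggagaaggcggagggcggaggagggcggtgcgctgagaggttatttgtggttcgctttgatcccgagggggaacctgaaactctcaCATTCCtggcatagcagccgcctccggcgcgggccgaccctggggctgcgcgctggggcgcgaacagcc
YAP1: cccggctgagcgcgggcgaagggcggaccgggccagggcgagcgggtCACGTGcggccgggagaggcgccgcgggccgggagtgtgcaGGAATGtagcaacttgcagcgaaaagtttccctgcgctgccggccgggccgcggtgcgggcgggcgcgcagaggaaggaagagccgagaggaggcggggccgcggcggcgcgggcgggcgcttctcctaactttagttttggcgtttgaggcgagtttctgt
PTPN14: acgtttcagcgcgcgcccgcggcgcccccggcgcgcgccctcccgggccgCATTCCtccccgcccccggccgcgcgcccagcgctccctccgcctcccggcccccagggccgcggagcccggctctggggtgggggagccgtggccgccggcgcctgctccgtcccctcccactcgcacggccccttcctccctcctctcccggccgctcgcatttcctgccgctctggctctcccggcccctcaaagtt

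CCN2 held 3 cores, which begin 169, 104 and 95 bases before the start. AMOTL2 held 1 on the opposite strand, 69 bases before the start, PTPN14 held 1 on the opposite strand at 200 bases, and YAP1 held 1 at 162 bases with a CACGTG at 203 bases. AJUBA had a core 59 bases before a second, internal start site and none before its canonical start. None was found in these windows of LATS2 and WWTR1, or before another AMOTL2 start at -970 bp from its canonical start. Of 21571 RefSeq promoters of coding genes, 10.5% held at least 1 core on either strand in the same window, 0.756% at least 2 and 0.0695% (15 promoters) at least 3. The AP-1 motif TGANTCA, which often lies near TEAD cores in enhancers, was in 5.36% of these promoters and in none of the 7 genes' windows. CACGTG was in 7.38%. Both strands were searched for every motif, and a match is a description of letters only.

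Each list gives the single highest base (the summit) of every peak called in a single library, with the authors' score, −log10 of the q-value. Summits were ranked by that score within their list, with rank 1 the best, and a rank percentile is the rank as a percent of the list's length. The WT POL2 lists held 17126, 5047 and 9925 summits (replicates 1, 2 and 3) and the SLK-KO lists 19017, 15436 and 16298. The MYC lists were much shorter, with 201 to 365 summits in WT and 988 to 1420 in SLK-KO. Read depth is unknown, so list length stands for neither depth nor amount of binding, and ranks in lists of unequal length show no change by themselves. The targeted gene SLK had POL2 promoter summits in 2 WT libraries and all 3 SLK-KO ones, which does not check the knockout. For the cell type, POL2 promoter summits at KRT8, KRT18 and KRT19, the keratins of simple epithelia, were found in all 6 libraries, EPCAM had them in 1 WT and 3 SLK-KO libraries and CDH1 in 1 WT and 0 SLK-KO libraries. KLK3, a marker of luminal prostate cells, had none in any library, nor did the blood markers PTPRC and CD3E, while TMPRSS2, also a luminal marker, had them in all 6. Of the other markers, the neuroendocrine SYP had them in 2 WT and 3 SLK-KO libraries, the fibroblast gene COL1A1 in 2 and 2 and the endothelial PECAM1 in 1 and 0, while CHGA, DCN and CDH5 had none.

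A locus was counted from 1 kb before the first annotated start site to 2 kb past the gene end. Within it, a summit within 1 kb of any annotated start site (GENCODE release 44) of the gene counted as a promoter summit. Positions below are in bp along the gene from the start of the Ensembl canonical transcript, with negative values upstream. All 10 genes had at least 1 POL2 summit in their locus in all 6 libraries, against 20.5% of coding genes. A promoter summit in all 6 libraries was found at 8 of 10, against 18.1%, the 2 others being CCN1 and CCN2. The genes were chosen with these lists in view, so nothing is read from these shares.

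CCN2, which encodes connective tissue growth factor, had the most marked difference in where POL2 was highest. The gene is short (chromosome 6, 131948176 to 131951372, minus strand, 3197 bp, with a single annotated start site), and each library had exactly 1 POL2 summit in its locus. In WT the summit lay at the far end of the gene. WT replicate 1 had it at 3567 bp, 371 bp past the gene end, WT replicate 2 at 2671 bp and WT replicate 3 at 2595 bp, both in the 3′ untranslated region, 525 and 601 bp before the gene end. In SLK-KO the summit lay in the 5′ untranslated region just past the start, at 61, 73 and 57 bp in replicates 1, 2 and 3. The genotypes did not overlap, and 2522 bp separated the nearest WT and SLK-KO summits. All 6 summits were among the best of their lists. Their ranks were 65, 46 and 47 in WT and 107, 124 and 101 in SLK-KO, with scores of 419, 129 and 271 in WT and 313, 229 and 301 in SLK-KO. The promoter of the 3 cores shown above thus had no summit of its own in any WT list, although POL2 was called at the other end of the same gene. The start site of the long noncoding RNA LINC01013 lies inside CCN2, 98 to 114 bp from the SLK-KO summits. ChIP-seq does not assign POL2 to a strand or to either of these genes. The lists give no peak widths, so a maximum that moved within a broad peak and 2 separate peaks cannot be told apart.

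CCN1 encodes CYR61, a secreted protein of the same family, and is another classical YAP/TAZ target (chromosome 1, 85580761 to 85584589, plus strand, 3829 bp). It too had a single POL2 summit per library in its locus. Replicates 1 and 2 of WT had it at 62 and 32 bp, and the SLK-KO replicates at 48, 73 and 47 bp, all in the 5′ untranslated region. In WT replicate 3 it lay at 3525 bp, 303 bp before the gene end and past the canonical transcript. A distal maximum at CCN1 thus appeared in 1 of 3 WT libraries, and the positions of the genotypes overlapped. CCN1 had the best rank percentile of the 10 genes in 5 of the 6 libraries, with CCN2 ahead of it in WT replicate 2. Its ranks were 37, 52 and 34 in WT and 40, 38 and 37 in SLK-KO.

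**Figure D1:**
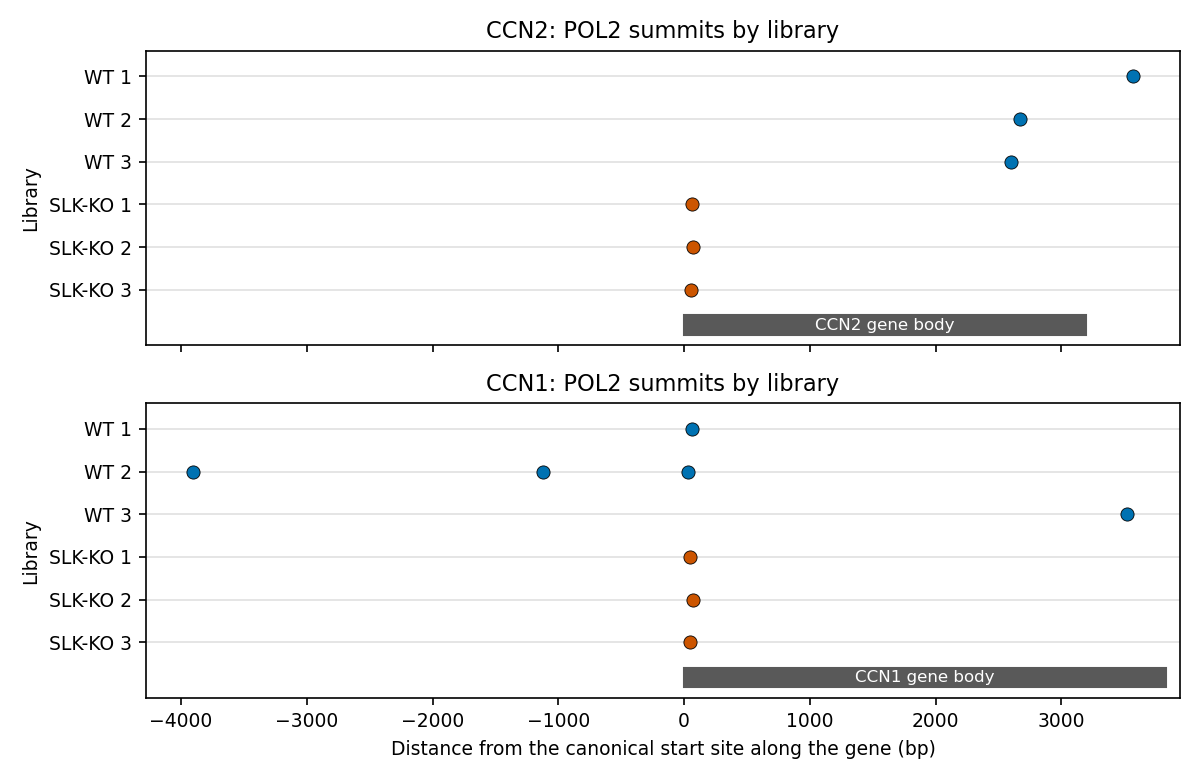
POL2 summits at CCN2 (top) and CCN1 (bottom) in each of the 6 POL2 libraries. The x axis is the distance in bp from the canonical start site along the gene, each row is a library (blue WT, orange SLK-KO), each point is a summit, and the grey bar is the gene body. At CCN2 the WT summits lie between 2595 and 3567 bp and the SLK-KO summits between 57 and 73 bp, while at CCN1 only WT replicate 3 has a summit near the gene end.

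To place CCN2 among all genes, the best-ranked POL2 summit of each locus was followed in the 4103 coding genes with a locus summit in all 6 libraries. Positions of the best summit did not overlap between the genotypes at 3 of the 10 genes, CCN2, LATS2 and ASAP1, against 11.5% of the 4103 genes (471 genes). Most such gaps were small: the median over the 471 genes was 15 bp, and 348 were at most 50 bp. Gaps of more than 100 bp, a limit set after seeing the data, were found at CCN2 and ASAP1 among the 10 genes and at 2.02% of all genes, and 29 genes had a gap of more than 1000 bp. A best summit in a promoter window in every SLK-KO and no WT library was found at CCN2 and at 0.268% of genes (11 genes, 3 of them under 10 kb long). The reverse, in every WT and no SLK-KO library, was found at none of the 10 genes and at 0.122% of all. These counts describe CCN2 and are no test of it, since CCN2 was selected on this difference. Over the 471 genes the SLK-KO summit was the upstream one at 263 and the downstream one at 208.

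LATS2, one of the kinases that phosphorylate YAP and TAZ, had its best POL2 summit just past the start of the gene in all 6 libraries (chromosome 13, 20973036 to 21061586, minus strand). The positions were 85, 86 and 86 bp in WT and 106, 94 and 106 bp in SLK-KO. They did not overlap, but the gap was only 8 bp. Intron summits of LATS2 were weaker, and 8 of its 13 sites were found in a single library.

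AMOTL2 encodes an angiomotin-like protein that binds YAP and restrains it (chromosome 3, 134355347 to 134375479, minus strand). Its best summit lay in the 5′ untranslated region of the canonical transcript, at 62, 60 and 32 bp in WT and at 31, 80 and 32 bp in SLK-KO, with overlapping positions. The ranks were 342, 228 and 339 in WT and 255, 235 and 220 in SLK-KO. Most of its other summits were spread through the gene body with poorer ranks, up to 10 summits per library in all. Past the gene end, WT replicate 1 had a summit at 1415 bp and the SLK-KO replicates at 197, 817 and 1025 bp. WT replicates 2 and 3 had none there. The SLK-KO ranks there were 8349, 5554 and 7882, past the end of the list of WT replicate 2. WT replicate 1 also had a summit 17 bp before the gene end, less than 250 bp from the SLK-KO replicate 1 summit.

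PTPN14 encodes a protein tyrosine phosphatase that binds YAP and lowers its activity, and it is itself a YAP target (chromosome 1, 214348700 to 214552449, minus strand). Its canonical start lies 847 bp inside the first annotated start. The best POL2 summit lay between these starts in WT, at -485, -510 and -449 bp, with ranks of 1182, 828 and 787. In SLK-KO replicates 1 and 2 it lay at the first annotated start, at -819 and -821 bp, and in SLK-KO replicate 3 at the canonical start, at 26 bp, with ranks of 1284, 1231 and 1012. The SLK-KO summits thus lay on both sides of the WT summits, so that the ranges overlapped although no SLK-KO summit fell on the WT site. A much weaker site in an intron, at 1039 to 1297 bp, was found in all 3 SLK-KO and no WT library, with ranks of 12006, 13799 and 13153, past the end of the WT lists of replicates 2 and 3. An intron site near 104391 bp was found in WT replicate 1 and SLK-KO replicates 1 and 2.

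AJUBA encodes a LIM-domain protein that binds LATS kinases and limits them (chromosome 14, 22971177 to 22982551, minus strand). The best summit lay at the start, at 46, 86 and -25 bp in WT and 75, 40 and 74 bp in SLK-KO, with overlapping positions. Its ranks were 1131, 2005 and 3361 in WT and 843, 948 and 827 in SLK-KO, and the scores were 58.3, 7.85 and 12.0 in WT and 75.6, 55.0 and 67.8 in SLK-KO. The locus held 2, 2 and 3 summits in WT and 3, 4 and 6 in SLK-KO. A summit at 1400 to 1575 bp, near an internal start site, was found in WT replicates 2 and 3 and SLK-KO replicates 2 and 3. The divergent noncoding gene AJUBA-DT starts within 1 kb of the main summit.

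**Figure D2:**
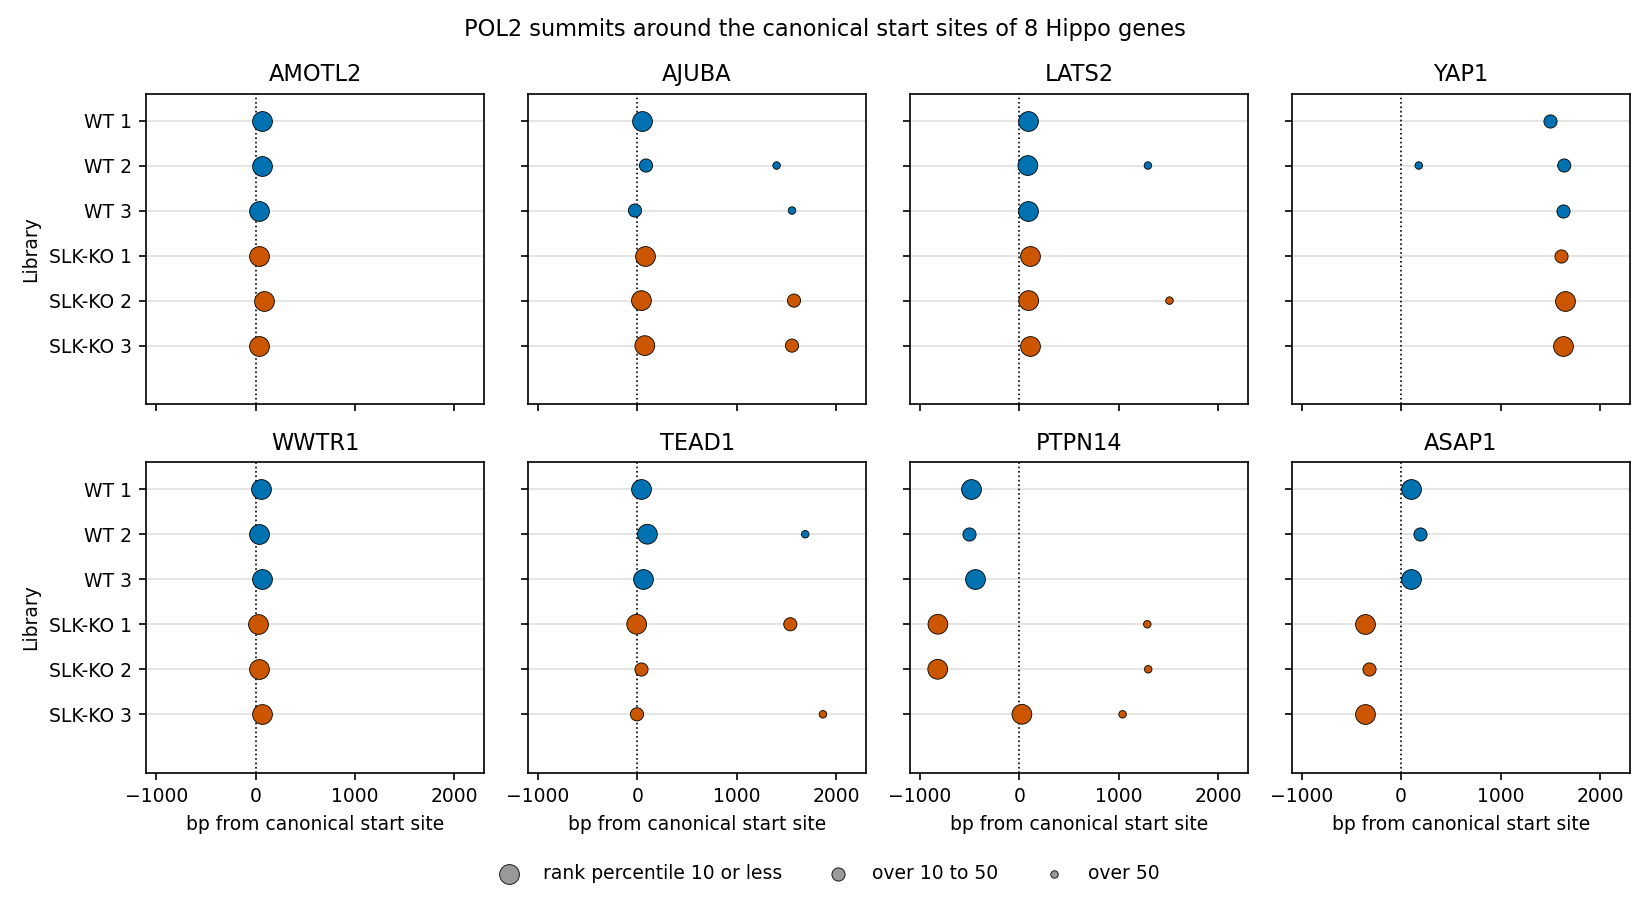
POL2 summits from 1000 bp before to 2000 bp after the canonical start site of the 8 other genes, by library. The x axis is the distance in bp along the gene, each row is a library (blue WT, orange SLK-KO), and larger points have better rank percentiles. WT and SLK-KO points share a position at AMOTL2, WWTR1, YAP1 and LATS2 at this scale, while at ASAP1 and PTPN14 no SLK-KO point lies on the WT site.

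The 3 nuclear effectors had start-site summits at shared or nearby positions. YAP1 (chromosome 11, 102110447 to 102233424, plus strand) had its best summit inside an intron of the canonical transcript, near internal start sites, at 1501, 1641 and 1626 bp in WT and 1611, 1645 and 1628 bp in SLK-KO. Only WT replicate 2 also had a summit near the canonical start, at 177 bp, with rank 3005. WWTR1 (chromosome 3, 149517235 to 149736714, minus strand) had its best summit at 53, 31 and 68 bp in WT and 22, 34 and 68 bp in SLK-KO, in the 5′ untranslated region. The locus of WWTR1 held 11, 6 and 14 summits in WT and 11, 11 and 13 in SLK-KO, the most of the 10 loci in 5 of the 6 libraries, with TEAD1 ahead at 12 in WT replicate 1. A further site near internal start sites lay at 81816 to 81876 bp in WT and SLK-KO replicates 1 and 2 and at 82201 bp in SLK-KO replicate 3.

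TEAD1, which encodes a DNA-binding partner of YAP and TAZ (chromosome 11, 12674421 to 12944737, plus strand), had a start-site summit at 36, 100 and 55 bp in WT and at -8, 34 and -5 bp in SLK-KO. The highest SLK-KO position lay below the lowest WT position, by a few bp, but at this gene the best-ranked summit, not the start-site summit, entered the count of positions that did not overlap. Start-site ranks were 735, 497 and 463 in WT and 1889, 1785 and 1946 in SLK-KO, or 4.29%, 9.85% and 4.66% of the list in WT and 9.93%, 11.6% and 11.9% in SLK-KO. An intron site at 19528 to 19911 bp was found in all 6 libraries. In SLK-KO replicate 2 this intron summit, with rank 1415, was better ranked than the start-site summit, which was so in no other library.

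ASAP1 encodes an Arf GTPase-activating protein of focal adhesions and is the longest of the 10 genes (chromosome 8, 130052104 to 130443674, minus strand, 391571 bp). Its best POL2 summit lay downstream of the start in WT, at 98, 187 and 96 bp in the 5′ untranslated region, with ranks of 705, 1045 and 788. In SLK-KO it lay upstream of the start, at -363, -321 and -362 bp, with ranks of 791, 2112 and 1355. The genotypes did not overlap, and the nearest WT and SLK-KO summits were 417 bp apart. The change of position was smaller than at CCN2, and here every best-ranked summit stayed within 1 kb of the start. An intron site at 85122 to 85147 bp was found in 2 WT and 3 SLK-KO libraries, within 1 kb of the start of an unnamed gene (ENSG00000286535).

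**Figure D3:**
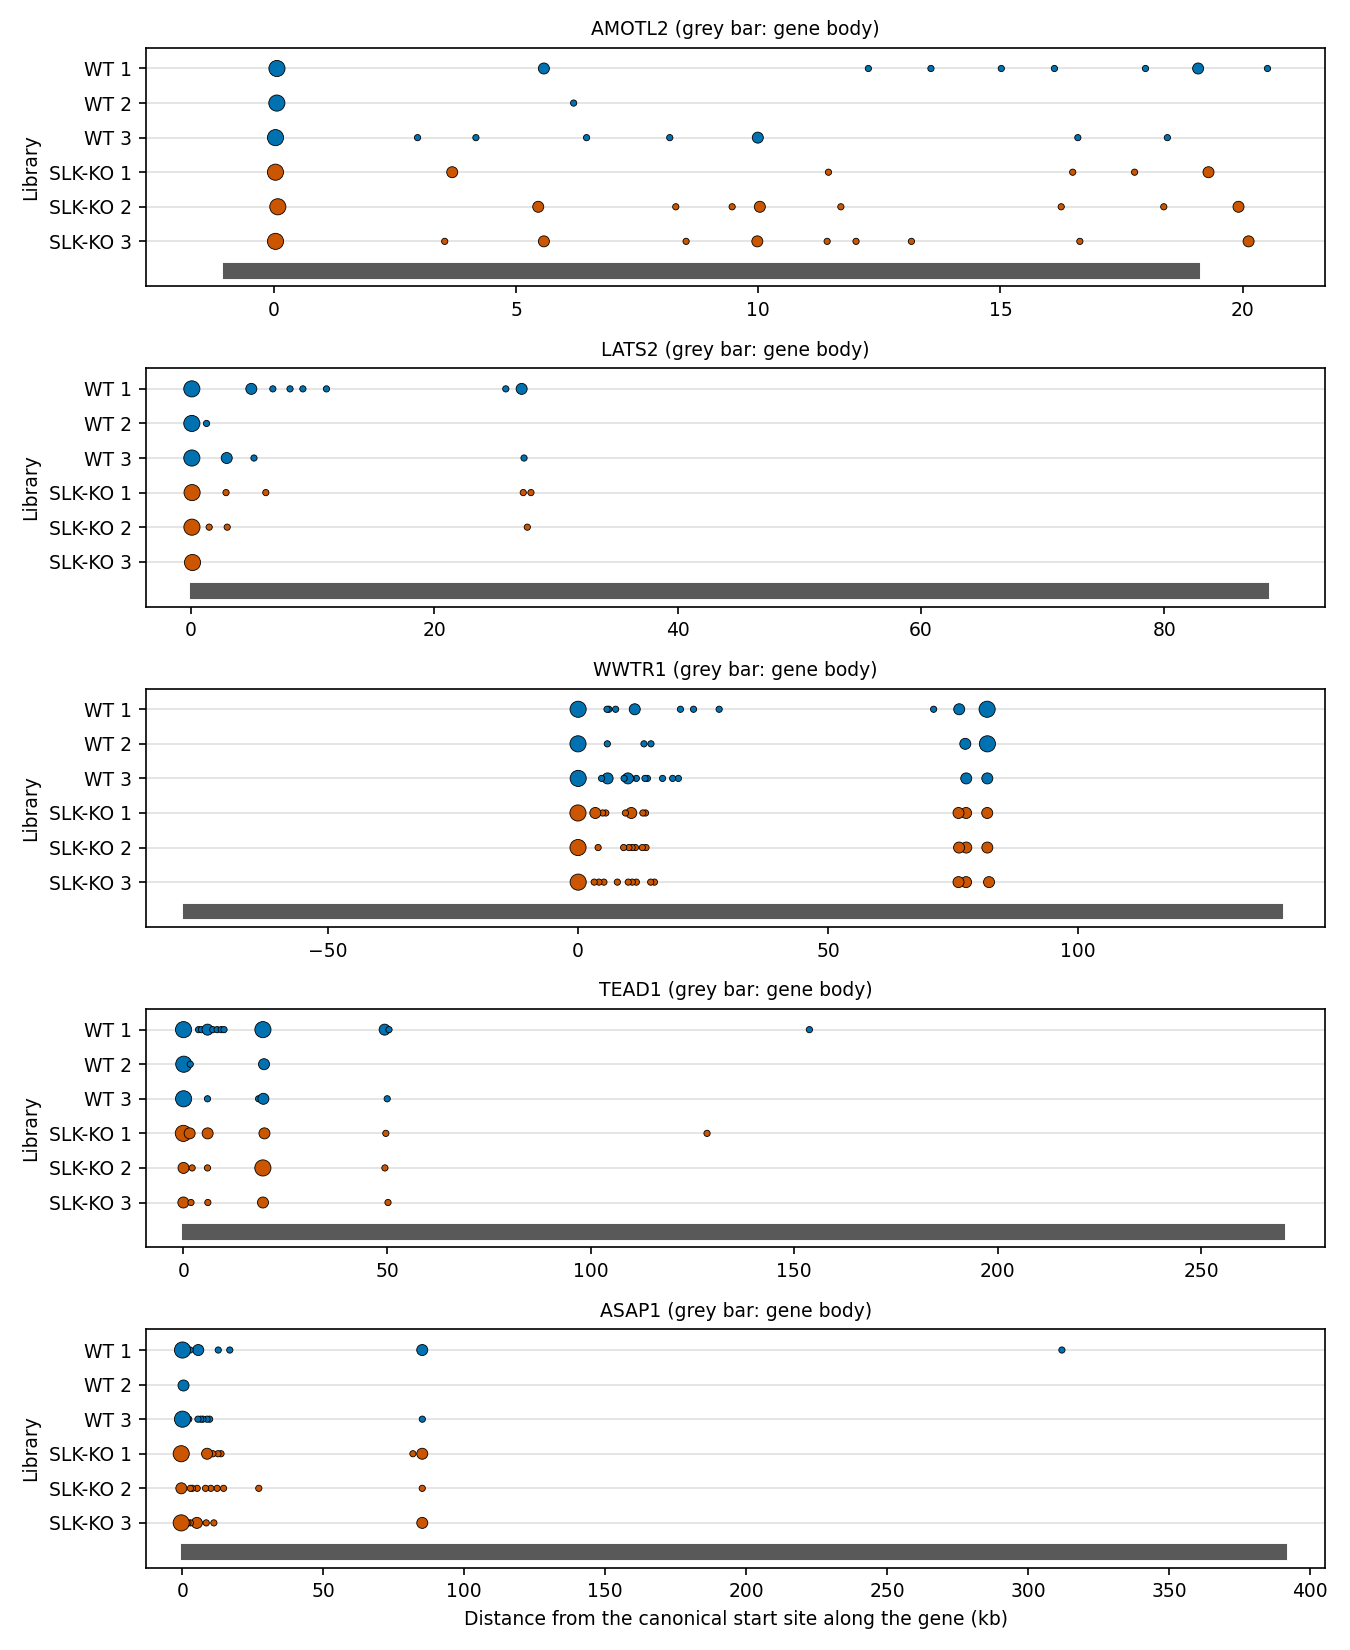
POL2 summits along 5 longer loci, by library. The x axis is the distance in kb from the canonical start site along the gene, the grey bar is the whole gene body, blue is WT, orange is SLK-KO, and larger points have better rank percentiles. The best-ranked summits stand at the starts except for TEAD1 in SLK-KO replicate 2, the TEAD1 intron site near 19528 bp recurs in all 6 libraries, and WT replicate 2 has the fewest gene-body summits at AMOTL2, WWTR1, TEAD1 and ASAP1.

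Summits of the 6 POL2 libraries that lay 250 bp or less apart were joined into sites, 128 over the 10 loci. Of these, 7 were found in all 6 libraries, namely the start-site or promoter sites of AMOTL2, AJUBA, LATS2, YAP1, WWTR1 and TEAD1 and the TEAD1 intron site. In a single library only were 69. A site in 3 SLK-KO and 0 WT libraries was found at CCN2, PTPN14 and ASAP1, against 6.90% of the coding genes with a POL2 site, and a site in 3 WT and 0 SLK-KO libraries at PTPN14 and ASAP1, against 0.359%. These genes were chosen for having such sites, so their counts follow from the choice and nothing is read from these shares. The SLK-KO site of PTPN14, the weak intron site, was lost with lists of equal length and with a score of at least 5. When summits up to 500 bp apart were joined, neither kind of site was left at ASAP1, and at PTPN14 the WT site was lost. With 250 bp, the 2 kinds of site at ASAP1 face each other across the start, and at CCN2 the WT summits fell in 2 sites rather than in a shared one.

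Over the 10 loci together, the libraries held 54, 21 and 46 POL2 summits in WT and 45, 50 and 49 in SLK-KO, or 40.3 ± 17.2 and 48.0 ± 2.65 (SD, n = 3 each). The ranges overlapped, and the difference of 7.67 summits was smaller than the WT spread. Promoter summits numbered 12, 13 and 13 in WT and 14, 14 and 18 in SLK-KO. These ranges did not overlap, but they include the SLK-KO sites of CCN2 and PTPN14, genes chosen for such sites. The PTPN14 site is the weak intron site that was lost with lists of equal length. Promoter summits were not recounted at equal length or set beside all genes, so no gain is read from them. Gene-body summits numbered 40, 8 and 33 in WT and 30, 35 and 30 in SLK-KO, with the low value in WT replicate 2, which also had the shortest list. When every list was reduced to its 5047 best-scored summits, the counts were 14, 21 and 18 in WT and 14, 14 and 14 in SLK-KO, and the difference turned to -3.67. Without WT replicate 2 it was -2. No gene had more locus summits in every SLK-KO than in every WT library (0 of 10, against 3.84% of coding genes) or the reverse (0 of 10, against 0.0200%). With lists of equal length the reverse held at WWTR1.

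**Figure D4:**
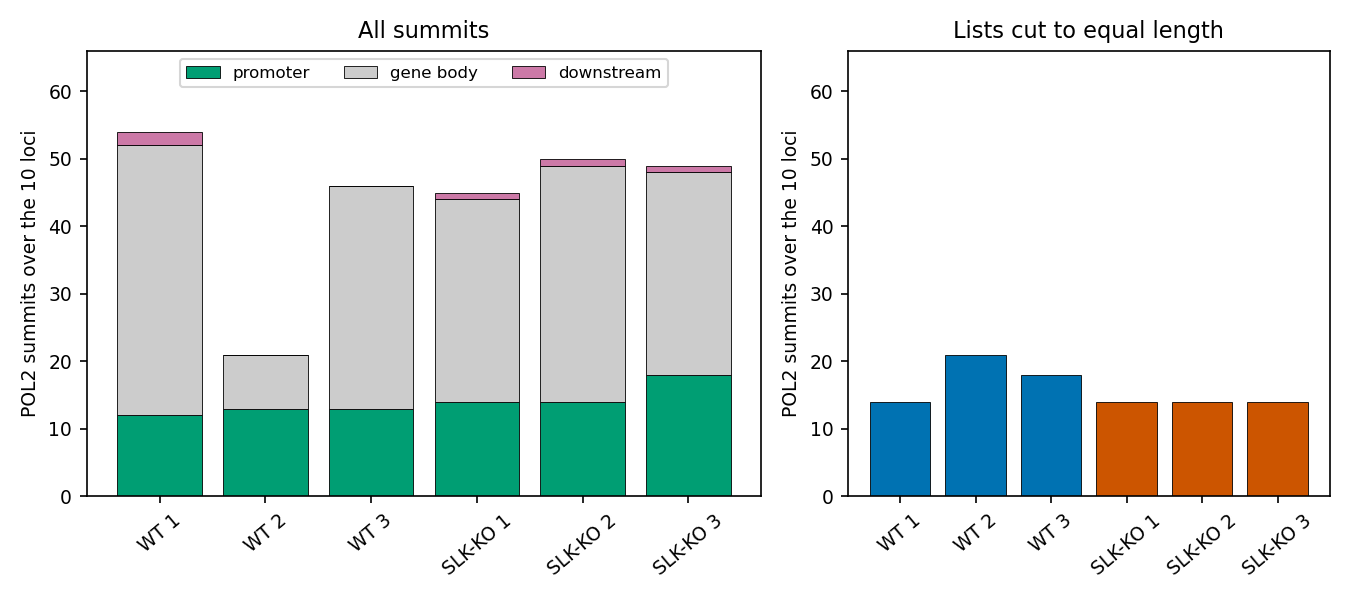
Number of POL2 summits over the 10 loci in each library, with all summits (left, stacked by promoter, gene body and downstream of the gene end) and with lists reduced to 5047 summits (right, blue WT, orange SLK-KO). WT replicate 2 has 21 summits in both panels because its list is the shortest, and the SLK-KO libraries go from 45 to 50 summits to 14 each.

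The best summit of a locus had a better rank percentile in every SLK-KO than in every WT library at AMOTL2, AJUBA and YAP1 (3 of 10), against 24.5% of the 4103 genes. The reverse held at none of the 10 genes, against 0.731%. The count of 3 is close to the background share. At equal list length AJUBA alone kept the better SLK-KO rank, and CCN2 and TEAD1 were better ranked in every WT library. The median rank percentile of the best summit over the 10 genes was 4.20%, 9.42% and 5.37% in WT and 4.30%, 6.82% and 4.25% in SLK-KO, against 11.1%, 38.8% and 20.0% in WT and 10.6%, 13.3% and 12.5% in SLK-KO over all 4103 genes. WT replicates 2 and 3 had the poorest medians over all genes.

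**Figure D5:**
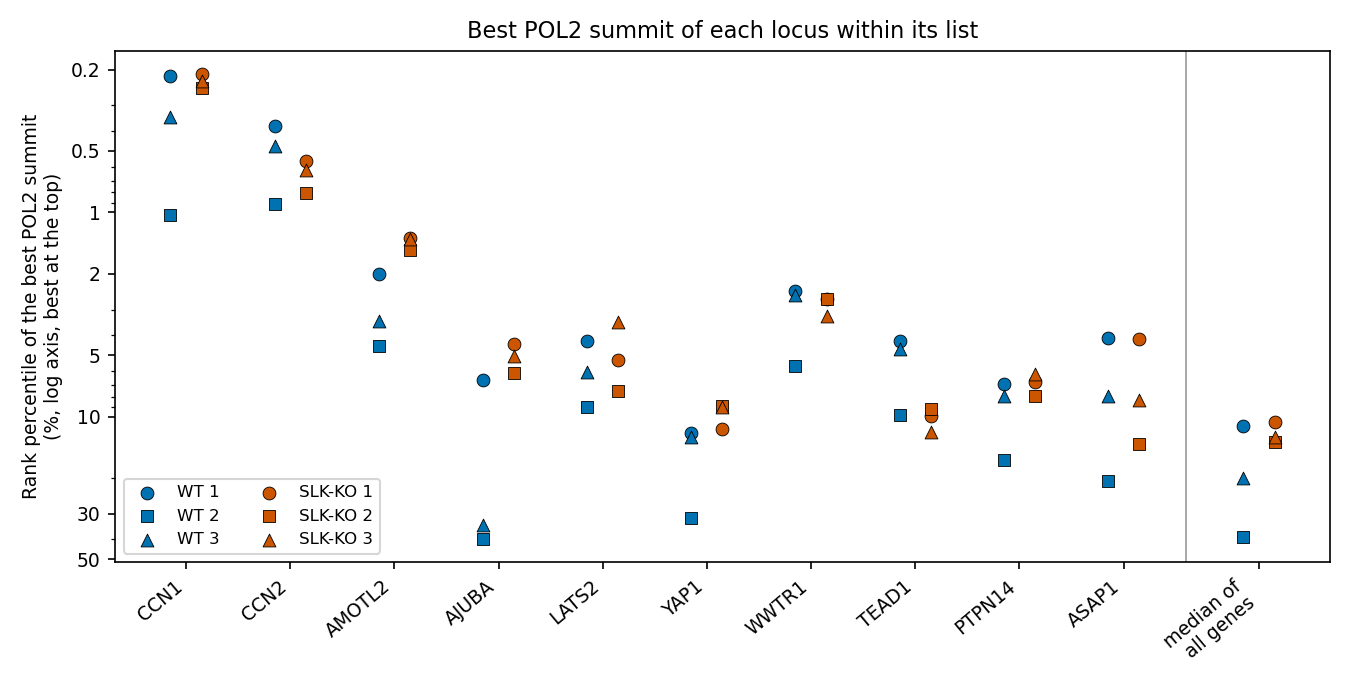
Rank percentile of the best POL2 summit of each locus (percent of the list, log axis, best at the top), with the median of all 4103 genes at the right. Each point is a library, blue WT and orange SLK-KO, and the marker shape gives the replicate. CCN1 and CCN2 have the best percentiles, about 1% or less in all libraries, and the WT replicate 2 squares lie lowest among the WT points at each gene and in the median of all genes.

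MYC, whose lists are short, had a promoter summit at 4 of the 10 genes in at least 1 library, CCN1, AJUBA, TEAD1 and ASAP1, against 9.69% of coding genes. ASAP1 had one in 5 of 6 MYC libraries, at -39 and -9 bp in WT replicates 1 and 3 (ranks 172 and 65) and at -114, 19 and -10 bp in the SLK-KO replicates (ranks 251, 49 and 176). The MYC summits of both genotypes lay between the WT and SLK-KO POL2 positions of that gene. AJUBA had MYC summits near its internal start at 1770 bp in WT replicate 3 and at 1732 and 1742 bp in SLK-KO replicates 2 and 3, and upstream of its start at -347 bp in WT replicate 2 and -184 bp in SLK-KO replicate 3. CCN1 had a single MYC summit, at -86 bp in SLK-KO replicate 3, ranked 923 of 988. TEAD1 had MYC summits in SLK-KO replicate 2 only, at 42 and 19687 bp, ranked 1095 and 1218. With a score of at least 5, or with each list reduced to 201 summits, 2 genes (ASAP1 and AJUBA) had one, so the summits at CCN1 and TEAD1 rest on the weak end of the longer SLK-KO lists. The share of all coding genes was not computed at these 2 settings, so the 9.69% is no background for them. CCN2 had no MYC summit in any library.

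Of the 13 MYC summits in the 10 loci, 0 had CACGTG within 100 bp, while 29.4% to 45.3% of all MYC summits of a library did. The 13 summits fall on only 4 genes and several are the same site in different libraries. GGAATG was within 100 bp of 5 to 10 of the 45 to 50 member POL2 summits in the SLK-KO libraries and of 8, 4 and 8 of the 54, 21 and 46 in WT, against 8.44% to 10.5% of all POL2 summits of a library. These summits also fall on few genes and repeat sites, with cores at the starts of LATS2 and TEAD1 counted in every library. No enrichment is read from these counts.

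Beside the 10 genes, 24 other Hippo regulators and 16 other YAP/TAZ targets were followed. A POL2 promoter summit was found in at least 2 WT libraries at 15 of the 24 regulators and in at least 2 SLK-KO libraries at 20, with 4 (STK3, AMOT, WTIP and DCHS1) in no library. Of the 16 targets it was found at 10 and 12, with ANKRD1, F3 and FOXF2 in no library. Over all coding genes the shares were 35.5% in WT and 47.5% in SLK-KO, so the count was higher in SLK-KO over the whole genome too. Locus summits were more numerous in every SLK-KO than in every WT library at 3 of the 24 regulators, AMOTL1, LIMD1 and TEAD4. The same held at 2 of the 16 targets, MYOF and AXL, while GADD45A had fewer. Over all coding genes, 3.84% had more in every SLK-KO library and 0.0200% had fewer. The counts were 8, 7 and 10 in WT and 20, 12 and 16 in SLK-KO at MYOF, which encodes the membrane-repair protein myoferlin. They were 5, 1 and 3 against 10, 8 and 10 at AXL, a receptor tyrosine kinase. LIMD1, a relative of AJUBA, had 1, 0 and 1 against 5, 5 and 4. GADD45A, a stress-response gene, had 2 in each WT and 1 in each SLK-KO library. A site in 3 SLK-KO and 0 WT libraries was found at AXL and at TEAD2, against 6.90% of the coding genes with a POL2 site. The best promoter ranks belonged to CCDC80, GADD45A, SAV1, MYOF and TGFB2. Promoter ranks at CCDC80 were 234, 303 and 396 in WT and 100, 78 and 105 in SLK-KO, and those at SAV1, the scaffold of the upstream kinases, were 276, 268 and 248 against 110, 92 and 111. They were 214, 196 and 260 against 156, 141 and 139 at GADD45A and 2172, 1039 and 869 against 659, 514 and 729 at TGFB2. By raw rank MYOF went the other way, with 300, 183 and 287 in WT and 354, 862 and 493 in SLK-KO. The rank percentiles of the best MYOF summit overlapped between the genotypes. Those of CCDC80, SAV1, GADD45A and TGFB2 were better in every SLK-KO than in every WT library. Of all 4103 genes with a locus summit in all 6 libraries, 24.5% had this and 0.731% the reverse. The lists differ in length and read depth is unknown, so these ranks and the summit counts above show no change by themselves. The 5 genes with these best promoter ranks had a promoter summit in all 6 libraries. They were picked by promoter rank and CCN2 by its split between genotypes, so no contrast with CCN2 is read from this. Only 8 of the 24 regulators and 9 of the 16 targets had a locus summit in all 6 libraries, so only these could be compared by best summit. None of them had it in a promoter window in every SLK-KO and no WT library. Over all genes with such locus summits the share was 0.268%, so nothing about CCN2 is read from this.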

How the data were processed

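The members and gene lists were chosen with earlier results of these data known. Per the labels, reads were processed with nf-core/chipseq 2.1.0 against GRCh38.p14, and the submitters' processing notes name Trim Galore 0.6.7, BWA 0.7.18-r1243, Picard 3.2.0 and MACS3 3.0.1. The authors deposited 12 lists of 1-bp summits, each from a single library, with a score read as −log10 of the q-value because the lowest values lie just above 1.30103. The control and options of peak calling are not given in the sources used here. Depth is unknown, since the lists hold no counts and no widths.

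Summits were assigned to gene loci of GENCODE release 44 (1 kb before the first start to 2 kb past the end), ranked within each list and joined into sites at 250 bp or less. Counting functions were tested on simulated data. No test was run, because the genes were selected on the measure. The named genes were the 10 members, SLK, and of the 40 other Hippo genes those with a site in 3 libraries of a genotype and 0 of the other or with locus counts that did not overlap, plus the 5 best by median promoter rank. Alternatives covered promoter windows, locus ends, joining distances, a score minimum of 5, equal list lengths, replicate pairing and leaving out each library. Python 3.11.15, pandas 2.3.3, numpy 2.4.6 and pysam 0.24.0 were used. The samples with IgG and of Input were not analysed here. Some of the marker genes checked are not reported here.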

Additional observations from a re-analysis of the deposited data

How the results depend on the processing

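Of 73 alternatives, 11 moved a count, either by over 1.5 times or up from 0. A further 2 reversed the difference in summits over the 10 loci, and 60 did neither. That difference was judged by the spread between WT libraries, not by a ratio. The difference in POL2 summits over the 10 loci was 7.67, and it reversed to -3.67 with lists of equal length. Leaving out a library gave -2 (without WT replicate 2) to 14.5 (without WT replicate 1). The number of genes with more locus summits in every SLK-KO than in every WT library was 0, became 1 with the locus extended to 5 kb past the gene end and was 0 to 1 when a library was left out (PTPN14 without WT replicate 1 or SLK-KO replicate 3, AJUBA without WT replicate 3 or SLK-KO replicate 1). With a replicate block, counting genes with more summits in SLK-KO in each same-numbered pair, it was 2 (AJUBA and PTPN14). The labels do not say that a replicate number marks a shared culture or day. Genes with a better best rank in every SLK-KO library numbered 3, and 1 with lists of equal length. Without WT replicate 2, CCN2, WWTR1 and TEAD1 were better ranked in every remaining WT library. Genes with a site in 3 libraries of a genotype and 0 of the other numbered 3, and 3 to 6 when a library was left out, where fewer libraries need to hold the site (5 without SLK-KO replicate 1 and 6 without SLK-KO replicate 2). It was 4 with summits joined at 100 bp, where PTPN14 lost its SLK-KO site and WWTR1 gained a WT site, and 2 at 500 bp (CCN2 and PTPN14). Genes with a MYC promoter summit numbered 4, and 2 with a score of at least 5 and 2 with lists of equal length. The count of 3 genes whose best positions did not overlap (CCN2, LATS2 and ASAP1) was 2 without the part past the gene end, where CCN2 lost its summit in WT replicate 1, and 2 with positions more than 100 bp apart, an alternative chosen after seeing the data. In every fit that left out a library, CCN2, LATS2 and ASAP1 were among them. With 3 libraries per genotype, unknown depth and no peak widths, small differences in position or rank were not resolvable.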

Other observations

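Several POL2 summits lay just outside the limits used for the loci. At CCN1, WT replicate 2 had summits at -1122 bp (rank 3652 of 5047) and at -3902 bp (rank 490), the latter 1 bp from a start site of the long noncoding gene ENSG00000282057, and no other library had a summit there. At AJUBA, SLK-KO replicates 1 and 3 had summits 2133 and 2145 bp past the gene end, where the limit was 2000 bp, with ranks of 13107 and 9212. At TEAD1, the intron summit at 2151 bp in SLK-KO replicate 2 counted in the gene body, and the one at 1866 bp in SLK-KO replicate 3 counted in a promoter window.

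Within 2 kb of the gene end on either side, the 10 loci held 4, 1 and 3 POL2 summits in WT and 3, 2 and 2 in SLK-KO. In WT, 4 of these 8 were the CCN2 summits and the distal CCN1 summit, and the others lay at AMOTL2. In SLK-KO they lay at AMOTL2 and AJUBA. AMOTL2 thus had such summits in both genotypes, with 3, 0 and 1 in WT and 2, 2 and 1 in SLK-KO.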
